A study of Drosophila melanogaster with 3 samples.

Results

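Intergenic peaks close to genes were examined in a chromatin immunoprecipitation sequencing (ChIP-seq) experiment on Drosophila melanogaster prepupae. A near-gene intergenic peak is here a peak of the authors' optimal list whose summit, the base of highest signal, lay in no annotated gene body and more than 500 bp but at most 2000 bp from the nearest annotated transcription start site (TSS). There were 321 such peaks among 5246 optimal peaks, a share of 6.12% with a 95% Wilson interval of 5.50 to 6.80%. They were selected on the signal that placed them in the optimal list and on the position of the summit, so their signals and ranks are given as a description, with no test. The flies came from the transgenic line CG7368-GFP, which stably expresses the product of CG7368 with a green fluorescent protein at its C-terminus. Whole prepupae of both sexes, of unknown age, were pooled, and an antibody against the fluorescent protein recovered the chromatin. There were 3 biological replicates of this single group, and no untagged or untreated group was analysed here. Because whole animals were used, a peak bound in a few cells cannot be told apart from weak binding in many. The depth behind each peak is unknown, because no label or file states the number of reads.

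CG7368 encodes a protein with C2H2 zinc fingers, a fold that many transcription factors use to bind DNA. DNA between genes and just outside their promoters often holds enhancers and silencers, short elements to which transcription factors bind to raise or lower the transcription of a gene. In the compact fly genome such an element can lie close to several genes, and the gene with the nearest TSS need not be the one it acts on. Prepupae form when a pulse of the steroid hormone ecdysone ends larval life, and larval tissues then begin to be replaced by adult ones.

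The sequences around the summits are shown for the 8 near-gene intergenic peaks of highest signal, because base composition at the summits differed from that of neighbouring DNA. Each is the plus strand of dm6 from 50 bases before to 50 bases after the summit, and capitals mark stretches of 6 or more consecutive A or T bases.
ds, chr2L:715528-715628: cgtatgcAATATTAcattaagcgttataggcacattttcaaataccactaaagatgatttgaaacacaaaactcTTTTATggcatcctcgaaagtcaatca
lncRNA:CR45643, chr3R:16222441-16222541: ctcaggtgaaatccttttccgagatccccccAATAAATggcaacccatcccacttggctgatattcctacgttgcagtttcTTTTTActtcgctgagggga
lncRNA:CR42794, chrX:5696502-5696602: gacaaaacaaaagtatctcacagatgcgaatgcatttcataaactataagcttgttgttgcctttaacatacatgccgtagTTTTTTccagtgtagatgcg
CG17896, chrX:493961-494061: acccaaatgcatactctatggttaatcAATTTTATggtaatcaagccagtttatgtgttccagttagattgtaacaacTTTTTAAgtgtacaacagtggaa
DNAlig3, chr3R:12403070-12403170: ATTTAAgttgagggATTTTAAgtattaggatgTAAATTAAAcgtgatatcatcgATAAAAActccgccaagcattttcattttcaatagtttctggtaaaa
lncRNA:CR45937, chr3L:18235975-18236075: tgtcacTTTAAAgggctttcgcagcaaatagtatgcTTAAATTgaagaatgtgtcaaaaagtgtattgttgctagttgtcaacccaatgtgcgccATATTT
Atf3, chrX:1277135-1277235: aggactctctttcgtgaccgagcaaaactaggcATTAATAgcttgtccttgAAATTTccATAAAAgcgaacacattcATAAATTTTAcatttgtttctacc
Fbxl7, chr3R:15919536-15919636: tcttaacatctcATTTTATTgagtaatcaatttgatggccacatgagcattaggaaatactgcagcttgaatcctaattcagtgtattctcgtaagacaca

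All 8 windows hold at least 1 stretch of this kind, and the windows at DNAlig3 and Atf3 hold 4 each. Such stretches were common in the class, where 90.0% of all summit windows and 70.7% of flank windows 300 bp away held at least 1. Their presence therefore does not set the 8 peaks apart. For comparison, the windows of the same length centred 300 bp to either side of the Atf3 summit were taken, since Atf3 and lncRNA:CR45937 had equal and the largest differences in A or T content between summit and flank among the 8, a choice made after the values were seen.
Atf3 flank, chrX:1276835-1276935: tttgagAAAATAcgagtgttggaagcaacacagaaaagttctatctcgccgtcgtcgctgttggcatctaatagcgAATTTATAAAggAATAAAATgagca
Atf3 flank, chrX:1277435-1277535: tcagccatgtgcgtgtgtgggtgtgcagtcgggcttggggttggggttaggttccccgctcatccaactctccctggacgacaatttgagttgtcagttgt
Within 25 bp of its centre, the Atf3 summit was 66.7% A or T, against 50.98% and 37.3% in the flanks. The flank of higher coordinate holds no stretch of 6 A or T bases. Not every strong peak followed this composition: at lncRNA:CR45643 the summit was 49.0% A or T against a flank mean of 68.6%, and at lncRNA:CR42794 both values were 64.7%.

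Reads of the 3 replicates had also been pooled to give a list of 30000 regions, and all 5246 optimal peaks were among its 5246 regions of highest signal. Signals are the authors' deposited values, with no formula given, and are compared only within the optimal list. Near-gene intergenic peaks had signals from 105 to 903 with a median of 167, against a median of 169 for all optimal peaks. Their ranks in the optimal list ran from 72 to 5182. Only 4 were among the first 100 peaks and 49 among the first 1000, which is 15.3% of the near-gene intergenic peaks against 19.1% of all optimal peaks. The class thus covered nearly the whole range of the list but did not reach its very top. Most (77.6%) had the list's usual width of 416 bp, while all of the 25 highest were narrower. The −log10 q-value was at its maximum in 272 of the 321, so it does not order them.

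The highest peak, at chr2L:715405-715718, lay 595 bp upstream of ds, which encodes the atypical cadherin Dachsous of the Fat and Hippo pathway. Its signal was 903, and it ranked 77 in replicate 1, 104 in replicate 2 and 63 in replicate 3. Fbxl7, an F-box gene that acts downstream of the cadherin Fat, had a peak at chr3R:15919447-15919723, 1312 bp upstream of its TSS, with a signal of 665 and ranks of 136, 196 and 175 in replicates 1, 2 and 3. The gene ft, which encodes Fat itself, had a peak of the class at chr2L:4222895-4223310, 1307 bp upstream. Its signal was 204, with ranks of 1993, 1360 and 4735. A stronger optimal peak of ft, with a signal of 310, lay 486 bp from its TSS and so fell just outside the class. Of these 3 genes, ds and Fbxl7 were named by rank, and ft by its peak just outside the class. They were set side by side because of their shared pathway, and no list of this pathway was tested.

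Other genes of known role among those nearest to the 25 highest peaks are given next, and the 25 were not tested for any function. Atf3, a bZIP transcription factor gene, had a peak at chrX:1277067-1277352, 1901 bp upstream, with a signal of 675 and ranks of 161, 173 and 164 in the 3 replicates. RasGAP1, which encodes a GTPase-activating protein of Ras, had a peak 684 bp upstream at chr3L:9855841-9856140, with a signal of 644 and ranks of 188, 193 and 182. The replicates placed both peaks almost identically. E(spl)malpha-BFM, a Bearded family gene of the Notch pathway, had a peak 1802 bp upstream with a signal of 546 and ranks of 315, 279 and 373. The peak 1437 bp upstream of klu, which encodes the zinc finger protein Klumpfuss, had a signal of 451 and varied more, with ranks of 222, 364 and 1286. The peak 1443 bp upstream of lola, a BTB zinc finger gene, had a signal of 428 and ranks of 480, 666 and 466.

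Long noncoding RNA genes had the nearest TSS for 9 of the 25 highest peaks. Noncoding RNA genes had it for 101 of all 321 peaks of the class (31.5%), so the 9 are not read as an excess. The highest of the 9 peaks lay upstream of lncRNA:CR45643, at chr3R:16222352-16222652, with a signal of 884 and ranks of 91, 122 and 55. The same noncoding gene had a further peak 932 bp downstream of its TSS, at chr3R:16224366-16224634, with a signal of 419 and ranks of 1623, 381 and 400. That peak lay 1119 bp from a TSS of the protein-coding neighbour tara, which encodes the transcriptional coregulator Taranis. Replicate 1 stands apart for that second peak, which it ranked far lower than the other two. The peak 571 bp upstream of lncRNA:CR42794 had a signal of 875 and lay in a gap of 1917 bp between that gene and CG3149, which point away from each other. The peak at lncRNA:CR45737 had a signal of 504, and sty, which encodes the receptor tyrosine kinase inhibitor Sprouty, was the next gene on its other side. The peak at lncRNA:CR45234 had a signal of 447, and the next gene on its other side was hid, a cell death gene.

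The nearest TSS did not always belong to a gene that borders the gap. The highest peak, nearest to ds, lay in a gap between lncRNA:CR44988 and lncRNA:CR46260. The peak nearest to lncRNA:CR44713 lay in a gap between lncRNA:CR44719 and lncRNA:CR44714. The peak of rank 130, at chr3R:12402993-12403257, lay in a gap of 437 bp between Sol1 and Cyp9f2, while the nearest TSS was that of DNAlig3, a DNA ligase gene, 1281 bp away. Its signal was 734, with ranks of 85, 147 and 172. CG17896, in contrast, borders the gap that holds its peak, with a signal of 854 at 516 bp upstream of the TSS, and the gap of 1118 bp ends at the oppositely oriented CG17778. The remaining protein-coding genes nearest to the 25 highest peaks were CG13898, CG12643, CG43658, COX7AL2, sp3, CG17746 and CG9411, with signals from 410 to 650. The lowest rank of any of the 25 in a replicate was 1623, and 23 of the 25 were within the first 1000 of every replicate.

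**Figure D1:**
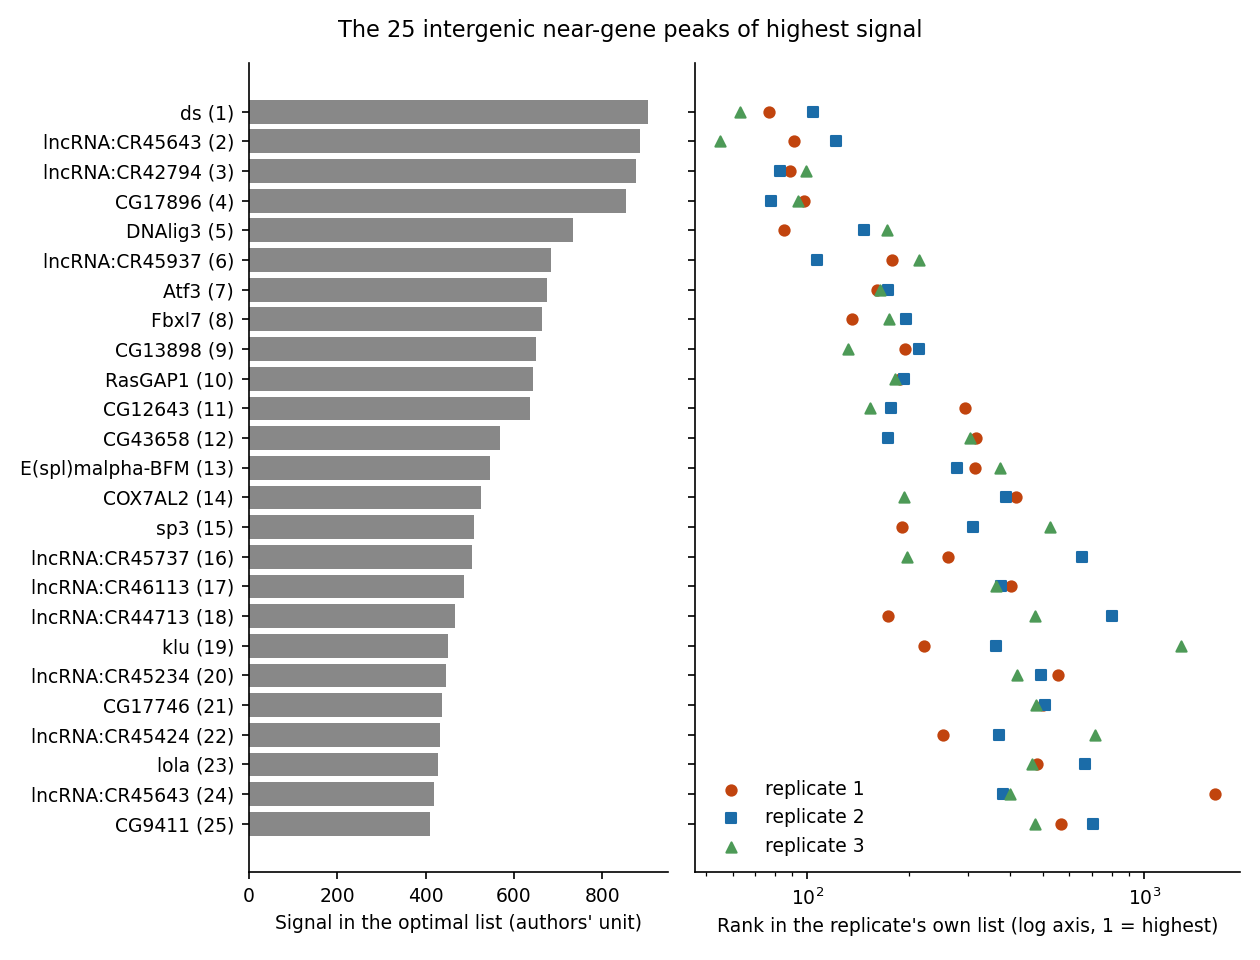
The 25 near-gene intergenic peaks of highest signal, from the highest at the top, each labelled with the gene of the nearest TSS and its order in the class. Bars show the authors' signal in the optimal list, and points show the rank of the overlapping region in the list of each replicate on a log axis. The points move to lower ranks as the signal falls, and the peaks near klu and the weaker lncRNA:CR45643 peak have 1 replicate far from the others.

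The 321 peaks formed 313 separate sites, because 8 sites held a pair of overlapping peaks of the class. Overlap with optimal peaks of other classes was not counted. The 321 peaks had 293 nearest genes. Of these, 25 genes had 2 near-gene intergenic peaks, and only CG13898 (FBgn0035161) had more. Its 4 peaks spanned chr3L:802074-806062, on both sides of the gene, with signals of 242, 650, 119 and 250 in order of position. The peak of signal 650 ranked 195, 214 and 132 in the replicates, and the peak of signal 119 ranked 2569, 3726 and 6672. This place was therefore a group of peaks of unequal strength rather than one broad region. CG7368 itself, at chr3L:11597202-11605374, had no near-gene intergenic peak within 2000 bp. The closest, at chr3L:11594020-11594435, lay 2974 bp from its TSS, in a gap that CG7368 borders, and was nearest to another gene. Its signal was 148, with ranks of 4217, 4125 and 3455 in replicates 1, 2 and 3.

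Relative to the DNA available, the near-gene intergenic space was a place of intermediate peak density. The genome held 7.39 Mb of such DNA, with 43.4 optimal peaks per Mb and an exact Poisson interval of 38.8 to 48.5 that covers counting error only. Intergenic DNA farther than 2000 bp from a TSS held 18.2 per Mb, and DNA within 500 bp of a TSS held 111. DNA inside genes held 38.1 at the same distance from a TSS and 26.4 beyond 2000 bp. Over all classes the density was 39.2 per Mb, which lies inside the interval of the near-gene intergenic class. The same count in the 5246 highest regions of each replicate gave 42.7 ± 0.625 per Mb for the near-gene intergenic class (SD, n = 3) and 17.3 ± 0.328 for the farther intergenic class. The difference from the class inside genes was smaller, 4.93 ± 0.572 per Mb (SD of 3 replicates). These densities rest on the rank by signal and are given with no test.

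In the pooled list, 400 of 2158 regions of the class overlapped an optimal peak, a share of 18.5% (95% Wilson interval 17.0 to 20.2%), against a background of 21.2% of all pooled regions, and this share follows from the choice of peaks. The class made up 6.02 ± 0.0880% of the 5246 highest regions of a replicate and 7.06 ± 0.104% of the rest of its list (SD, n = 3). This share is a description, since it rests on the rank by signal. The difference of -1.05 points was -0.408 with protein-coding genes alone, -0.496 with an outer limit of 1500 bp and -2.33 with one of 3000 bp.

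Summits were most dense close to the TSS but did not thin out evenly. The 250 bp closest to the gene held 79 peaks, or 53.9 per Mb, and the intervals after it held 55 and 45 peaks, or 40.5 and 36.0 per Mb. The following interval, from 1251 to 1500 bp, had 61 peaks and 52.2 per Mb. The outermost intervals had 41 and 40 peaks, or 37.2 and 38.3 per Mb. No test was made of this course, which was seen in a single list.

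**Figure D2:**
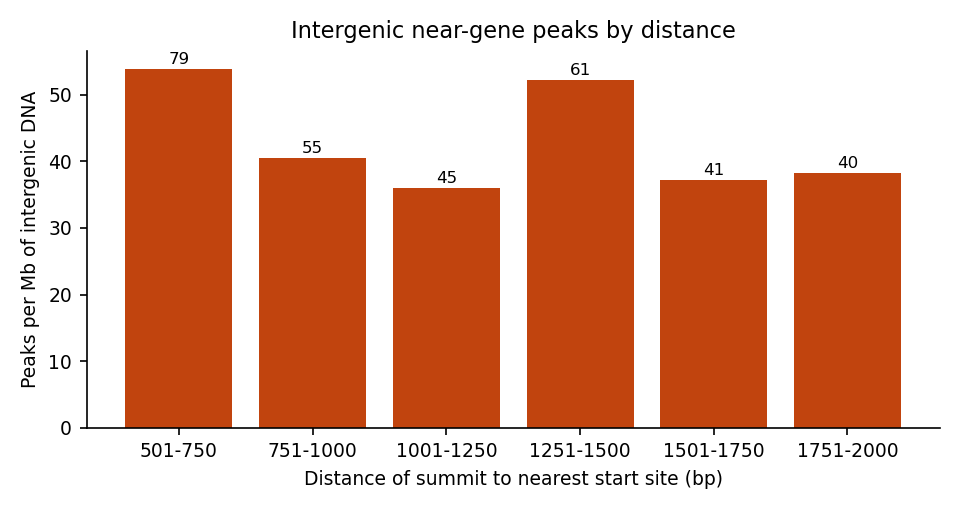
Near-gene intergenic peaks per Mb of intergenic DNA in steps of 250 bp from the nearest TSS, with the number of peaks above each bar. The first interval (53.9 per Mb) and the fourth (52.2 per Mb) stand above the others, which lie between 36.0 and 40.5 per Mb.

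Chromosome arm 3L carried more of these peaks than its DNA would give at an even density. It held 106 of the 321 peaks (33.0%) in 21.3% of the class's DNA, or 67.5 per Mb with an exact Poisson interval of 55.3 to 81.6. The other large arms had 42.7 per Mb on 2L, 39.0 on 3R, 32.1 on 2R and 31.7 on X. In the highest regions of replicates 1, 2 and 3, arm 3L had 61.8, 70.0 and 61.1 per Mb, against 37.2, 36.4 and 37.6 on the other 4 large arms combined. The mean difference was 27.3 ± 5.59 per Mb (SD, n = 3), with p = 0.25 in an exact two-sided sign-flip test, the smallest value that 3 replicates allow. This comparison was not planned, and 3L was picked as the densest arm of the same data. The direction was largely set by that choice, so the test gives no support.

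The excess on 3L was seen among the regions of higher signal. In each replicate list, 3L held 32.0 ± 1.99% of the class's highest regions and 24.2 ± 0.596% of its other regions (SD, n = 3), higher in all 3 replicates with p = 0.25 in the exact sign-flip test. In the pooled list, 3L also had the most regions of the class for its DNA, 347 per Mb against 250 to 287 per Mb on the other 4 large arms. Intergenic DNA farther from genes had its highest density on 3L too, 25.2 per Mb, and on the large arms its lowest on X, 9.27 per Mb. Inside genes at the same distance from a TSS the order was different, with 39.5 per Mb on 3L and 46.5 on X. Arm 2R, in contrast to 3L, held 13.4 ± 0.320% of the highest regions and 17.4 ± 0.936% of the others, lower in all 3 replicates with p = 0.25 in the exact sign-flip test. The comparisons of these shares were not planned either, and both arms were picked from the same data, so the values are a description.

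Part of the 3L excess lay in groups of neighbouring peaks. When peaks within 5000 bp of each other were counted once, 3L had 80 places, and the ratio of its density to that of the other 4 large arms was 1.54, against 1.82 when peaks were counted singly. With protein-coding genes alone as the annotation the ratio was 1.46. Groups of 3 or more peaks at this spacing numbered 5 on 3L and 1 on 2L, and none on 2R, 3R, X or 4. The largest on 3L, at chr3L:16165481-16176019, held 5 peaks near CG5151, CG33796, CG33795 and lncRNA:CR45754, with signals from 108 to 260. The group on 2L, at chr2L:12002780-12012794, also held 5 peaks, near Hacd1, the rhodopsin gene Rh5 and lncRNA:CR44588, with signals from 123 to 312. Other groups on 3L lay at CG13898, at the cuticle protein genes Cpr72Ea and Cpr72Eb, near lncRNA:CR45935 and lncRNA:CR45937, and near MESR6 and the MAP kinase phosphatase gene Mkp3. Overlapping peaks are counted singly here, so the group on 2L held 4 separate sites and that at Cpr72Ea and Cpr72Eb held 2. These groups were found after the values were seen.

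**Figure D3:**
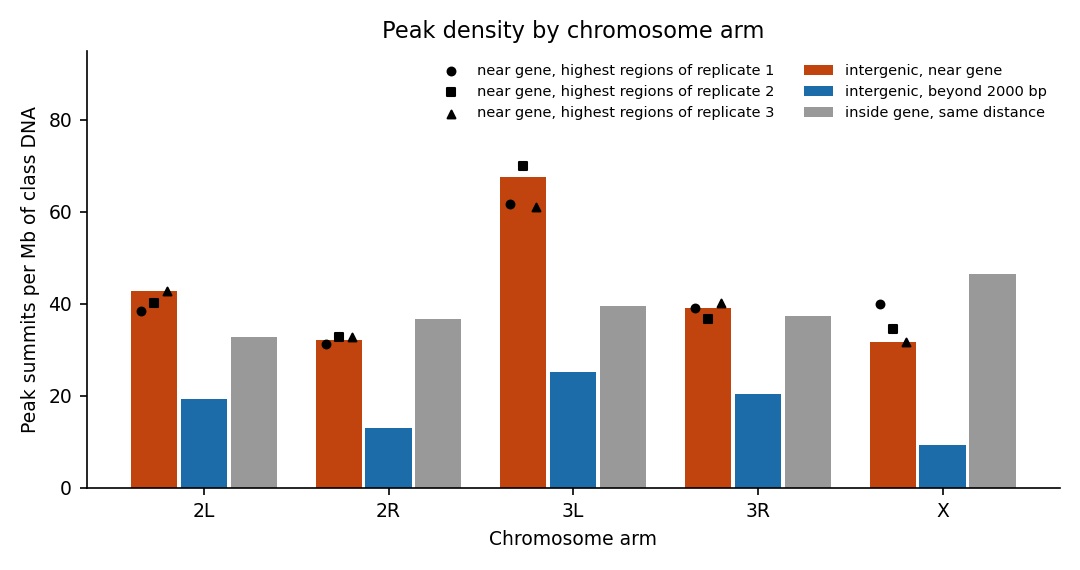
Optimal peaks per Mb of the DNA of their class on the 5 large chromosome arms (bars) for near-gene intergenic peaks, intergenic peaks beyond 2000 bp and peaks inside genes at the same distance from a TSS. Points give the near-gene intergenic density among the 5246 highest regions of each replicate. Arm 3L is highest for both intergenic classes, at 67.5 and 25.2 per Mb, and X is highest inside genes, at 46.5 per Mb.

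Most of these peaks lay upstream of their nearest gene. The rule itself favours this side, because it leaves out gene bodies, which lie downstream of a TSS. How much of the class's DNA lies upstream was not counted. Of 321, 254 (79.1%, 95% Wilson interval 74.4 to 83.2%) were upstream of the nearest TSS, and 67 lay downstream of it, outside the gene body. Regions of the pooled list in the same class that no optimal peak overlapped are called not retained, and 73.5% of 1758 such regions were upstream. The difference was 5.58 percentage points, with a Newcombe interval of 0.396 to 10.2 points over regions. In the replicates, 80.2 ± 1.33% of the highest regions and 74.1 ± 1.60% of the others were upstream (SD, n = 3), a difference of the same sign in all 3 replicates with p = 0.25 in the exact sign-flip test.

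The arrangement of the flanking genes differed less in the share of peaks. Tandem gaps, between genes read in the same direction, held 167 of the peaks (52.0%), against 52.4% of regions not retained. Divergent gaps, between genes that point away from each other, held 107 (33.3%), against 32.6%, and convergent gaps held 47 (14.6%), against 15.0%. The intervals of these differences all include 0, the widest running from -6.35 to 5.47 points for tandem gaps. In the replicates, the share in tandem gaps was higher among the highest regions than among the others by 1.15 ± 0.956 points and that in convergent gaps differed by -1.20 ± 0.925 points (SD, n = 3), each of 1 sign in all 3 replicates with p = 0.25 in the exact sign-flip test. For divergent gaps the difference was 0.129 ± 1.68 points, higher in 1 of 3 replicates. The gap had a median length of 4593 bp at the peaks and 5738 bp at regions not retained. The nearest gene was protein-coding for 211 peaks (65.7%, against 64.4% of regions not retained). It was a noncoding RNA gene for 101 (31.5%, against 31.6%), a tRNA gene for 7 and a pseudogene for 2.

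Genes with a near-gene intergenic peak had a promoter peak more often than genes near regions not retained only. Of 193 protein-coding genes nearest to a peak of the class, 52 (26.9%, 95% Wilson interval 21.2 to 33.6%) had an optimal summit within 500 bp of a TSS of their own, against 112 of 885 genes (12.7%) that were nearest to regions not retained only. The background over all 13945 protein-coding genes tested was 14.9%. The difference was 14.3 percentage points, with a Newcombe interval of 8.06 to 21.3 points over genes. With the highest regions of each replicate, the shares were 26.6, 27.4 and 27.5% for genes near those regions, against 13.7, 12.8 and 14.4% for genes near other regions only. All 3 values of the first group exceed all 3 of the second, and the mean difference was 13.5 ± 0.929 points (SD, n = 3), with p = 0.25 in the exact sign-flip test. A summit in the window of 250 bp around a TSS was found for 15.0% and 9.72% of these genes, and with only the upper 50% of the optimal list by signal the shares were 17.1% and 7.12%. Among optimal peaks of any class, the next summit was a median of 2244 bp away, and 84 peaks (26.2%) had one within 1000 bp.

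**Figure D4:**
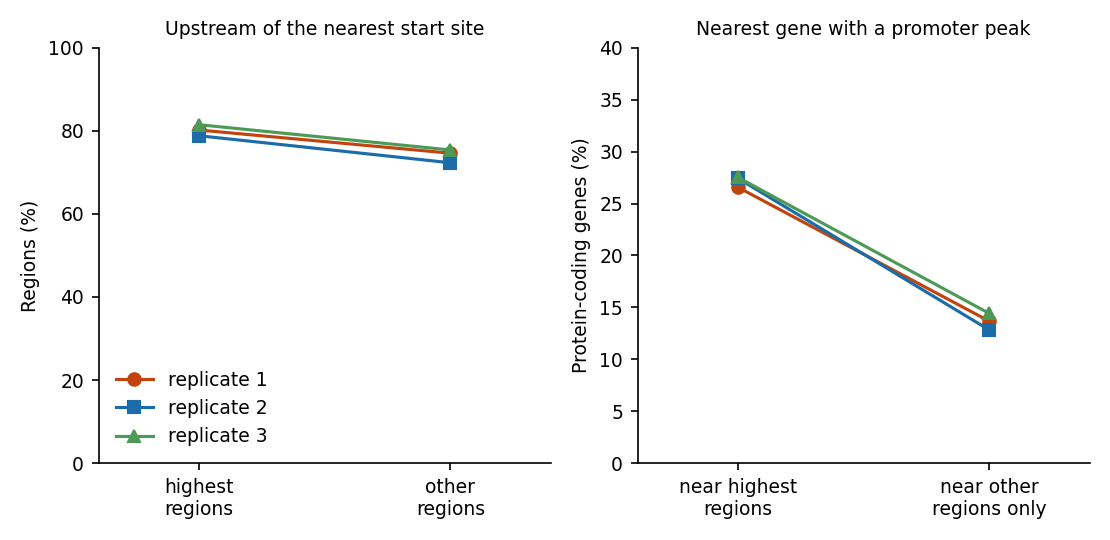
Share of near-gene intergenic regions that lay upstream of the nearest TSS (left) and share of protein-coding nearest genes with a promoter peak (right), for the 5246 highest regions of each replicate and for its other regions. Lines join values of 1 replicate. All 3 lines fall from the highest to the other regions in both panels, by a mean of 6.05 points on the left and 13.5 points on the right.

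The replicates recovered this class about as often as the rest of the list. Of the 321 peaks, 215 (67.0%, 95% Wilson interval 61.7 to 71.9%) overlapped the 5246 highest regions of all 3 replicates, against a background of 66.1% of all optimal peaks. A further 80 did so in 2 replicates, 24 in 1 and 2 in none. The replicate lists served to make the optimal list, so this overlap is partly built in. Median ranks of the overlapping regions were 2412, 2507 and 2679 in replicates 1, 2 and 3, against 2586.5, 2571 and 2591 for all other optimal peaks. The near-gene intergenic peaks thus ranked slightly higher in replicates 1 and 2 and slightly lower in replicate 3. Summits moved little: the median distance from the summit of a peak to that of the overlapping replicate region was 27, 19 and 16 bp, and 241, 261 and 269 summits were within 50 bp.

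DNA at the summits was richer in A and T than DNA on either side. In the 25 bp to each side of the summit, A and T made up 65.0 ± 11.4% of the sequence (SD, n = 321 peaks), against 55.2 ± 9.25% in the mean of the windows 300 bp to either side, and 234 of the 321 peaks (72.9%) were higher at the summit. The difference was 9.77 percentage points (SE 0.935 over peaks). In the highest regions of the replicates it was 8.02, 10.3 and 10.2 points, or 9.49 ± 1.28 (SD, n = 3), with p = 0.25 in the exact sign-flip test. In regions of the class that were not retained the difference was 0.696 points (SE 0.382, n = 1758). The gap between the highest and the other regions of the class was 9.02 ± 1.06 points in the replicates (SD, n = 3), positive in all 3, with p = 0.25 in the exact sign-flip test.

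Composition varied within the class. The 80 peaks with the highest signals, from 258 to 903, had a difference of 14.3 points (SE 1.61), and the 81 with the lowest signals, from 105 to 129, had 7.36 points (SE 1.92). Peaks nearest to noncoding RNA genes had a difference of 12.4 points (SE 1.496, n = 101) and those nearest to protein-coding genes 8.74 points (SE 1.19, n = 211). Downstream peaks had 12.4 points (SE 2.05, n = 67) and upstream peaks 9.07 points (SE 1.05, n = 254). These subsets were not tested against each other. On the 5 large arms the differences ranged from 7.76 points on X to 11.8 on 3R, and both peaks on chromosome 4 were lower in A and T at the summit than in the flanks.

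Against other classes, this difference between summit and flank was most like that of peaks inside genes at the same distance from a TSS. At the summit, A and T made up 65.0%, against 65.4% in that class. The share was 67.8% in intergenic peaks beyond 2000 bp and 63.2% in peaks within 500 bp of a TSS. The flanks of these 4 classes, in the same order, had 55.2, 55.7, 52.3 and 56.2%. Intergenic peaks beyond 2000 bp had a larger difference of 15.5 points, and in the replicates the near-gene class minus this class averaged -4.60 ± 0.537 points (SD, n = 3). Peaks inside genes at the same distance from a TSS had 9.72 points, which the near-gene class exceeded by 0.474 ± 0.345 points in the replicates. Peaks within 500 bp of a TSS had 7.02 points, which it exceeded by 3.15 ± 0.562 points. Each of these 3 comparisons had the same sign in all 3 replicates and p = 0.25 in the exact sign-flip test. For the comparison with peaks inside genes, the mean difference was close to the spread between replicates.

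**Figure D5:**
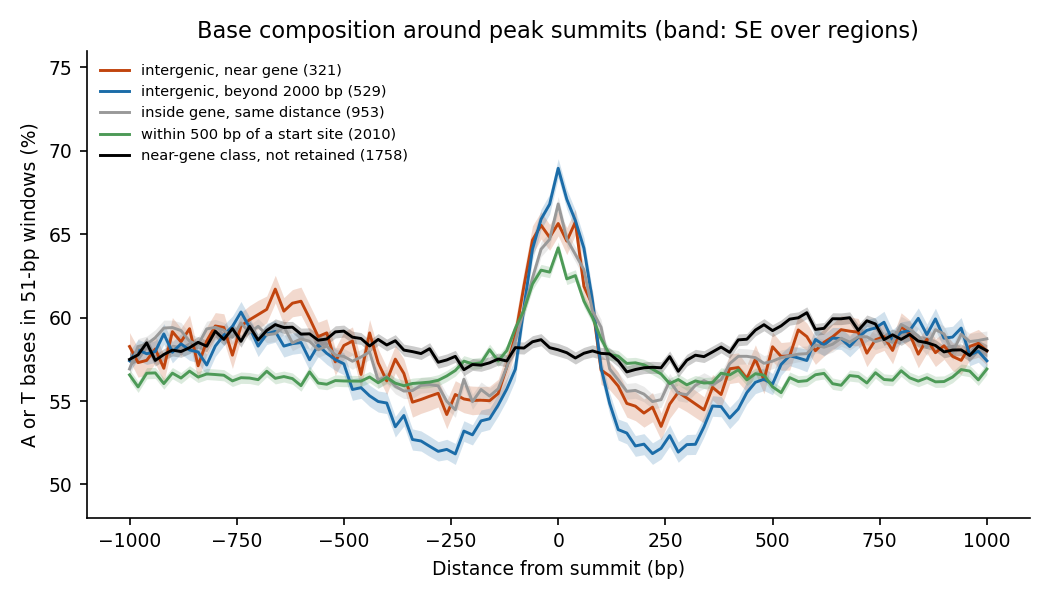
Mean share of A or T bases in windows of 51 bp against distance from the summit, for near-gene intergenic peaks, 3 other classes of optimal peaks and near-gene intergenic regions not retained. Bands are the SE over regions and the vertical axis does not start at 0. All classes of optimal peaks rise at the summit, the intergenic peaks beyond 2000 bp most, while regions not retained stay level with a summit mean of 58.2%. The near-gene intergenic profile dips beside the summit, to 55.3 and 55.2% at 300 bp against 58.3 and 58.0% at 1000 bp.

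The words that set summits apart followed this composition. Each window of 50 bp either side of a summit was set against an equally long flank window 300 bp away on a side drawn at random. Pairs of windows were compared by McNemar's exact test, and p-values were adjusted by the Benjamini-Hochberg method. Of 2080 words of 6 bases, each counted with its reverse complement, 131 (6.3%) passed an adjusted p of 0.05, 75 of them more frequent at the summit and 56 less. Of the 36 words made only of A and T, 27 were more frequent at the summit. AAAAAT was found in 39.6% of summit windows and 19.6% of flank windows (exact McNemar adjusted p = 0.000197), with 40.9, 36.1 and 34.2% against 18.2, 17.1 and 17.6% in the highest regions of the replicates. TTAAAA was found in 30.5% against 13.1% (exact McNemar adjusted p = 0.000235). Stretches of 6 or more A or T bases, capitalised in the sequences shown, numbered 2.90 ± 1.78 per summit window against 1.58 ± 1.57 per flank window (SD, n = 321).

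Of the 75 words more frequent at the summit, 48 held a C or G, most of them a single one. TCATAA was in 14.3% of summit windows and 2.80% of flank windows (exact McNemar adjusted p = 0.000235), and AGTTTA was in 16.2% against 4.36% (exact McNemar adjusted p = 0.000235). In the highest regions of replicates 1, 2 and 3, AGTTTA was found at 12.1, 14.3 and 16.3% of summits, against 5.43, 4.98 and 4.79% of flanks. AAAAAT and TTAAAA were also higher at the summits in every replicate, so this is not particular to AGTTTA. These regions largely overlap the peaks from which the words were picked, and the values are a description. Words that share bases with it passed as well, among them AACTAA, at 15.0% of summits against 4.05% of flanks, ACTAAA, at 15.9% against 4.98%, and AAACTA, at 14.6% against 4.36%. Words depleted at the summit were mostly rich in C and G, such as GGAGCA, in 0.312% of summit windows against 7.17% of flank windows, and CTGCTC, in 2.18% against 11.5% (exact McNemar adjusted p = 0.00062 for both). With flank windows 1000 bp away, 14 words passed in place of 131. A word is a description of these windows and not a binding site.

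Of 20 known motifs searched on both strands, 1 (5.0%) passed. It was TATAAA, the core of the TATA box, in 17.1% of summit windows and 8.72% of flank windows, with 51 peaks holding it at the summit alone and 24 in the flank alone (exact McNemar adjusted p = 0.0489). Among all optimal peaks 19.9% of summit windows and 9.99% of flank windows held it, and among regions of the class not retained 12.1% and 11.3%. In the highest regions of the replicates it was found at 17.9, 17.4 and 14.1% of summits, against 8.31, 6.542 and 12.5% of flanks. Its call was lost with flanks 1000 bp away (exact McNemar adjusted p = 0.79) and on the other side (exact McNemar adjusted p = 0.299), with 1 peak per site (0.0925) and without replicate 1 (0.119). The difference between summit and flank was 8.41 percentage points, and it was 7.99 with 1 peak per site, 8.07 without replicate 1 and 5.92 with either other flank. Over all alternatives its adjusted p from this exact test ran from 0.0107 to 0.79.

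The other 19 motifs did not pass. The homeodomain core TAATTA was in 9.66% of summit windows and 5.30% of flank windows (exact McNemar adjusted p = 0.191). The E-box CAGCTG was in 1.25% against 5.30% (exact McNemar adjusted p = 0.072), and GGAATG, bound by TEAD proteins such as Scalloped, was in 4.67% against 9.03% (exact McNemar adjusted p = 0.191). GATAAG, bound by GATA factors, was nearly even, in 4.98% against 4.67%, a difference of 0.312 points with an interval of -3.09 to 3.71. The nuclear receptor core AGGTCA was in 2.18% against 3.43% (exact McNemar adjusted p = 0.781), and GAGAGAG, bound by GAF and CLAMP, was in 0.935% against 3.43% (exact McNemar adjusted p = 0.191). The absence of these letters from a window says nothing about the factor that binds them.

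Gene lists were read over protein-coding genes that were nearest to at least 1 pooled region of the class. Of 1088 such genes, 193 (17.7%) were nearest to an optimal peak, which is the background for the counts that follow. Genes of cuticle proteins, which build the exoskeleton, numbered 4 of 22, close to that background. They were Cpr72Eb with a signal of 273 and ranks of 875, 1016 and 1986 in the 3 replicates, Cpr72Ea with overlapping peaks of 246 and 143, Cpr76Ba with 180 and Cpr65Ea with 132. All 4 genes lie on arm 3L, but how many of the 22 eligible genes lie there was not counted. Cpr76Ba varied between replicates, with ranks of 1237, 2450 and 5661.

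Developmental transcription factors numbered 2 of 16. The forkhead gene bin, of the visceral mesoderm, had overlapping peaks of signal 200 and 165, and the GATA factor gene srp, which acts in fat body and blood cells, had a peak of 188. Among signalling ligands and receptors, 2 of 6 had a peak. The Frizzled receptor gene fz had overlapping peaks of 307 and 122, with ranks of 770, 1288 and 1044, and the fibroblast growth factor gene ths had a peak of 128. Serpins, inhibitors of serine proteases, numbered 2 of 5, with Spn43Aa at 186 and Spn100A at 117. Odorant and gustatory receptors numbered 2 of 16, with Or45b at 237 and Gr89a at 140.

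Of 11 ecdysone response genes 1 had a peak, the nuclear receptor gene Hr38, with a signal of 126 and ranks of 2367, 5489 and 3623. This peak lay 1688 bp upstream and was outside the 5246 highest regions in replicate 2. The only eligible gene among heat shock and chaperone genes, stv, a co-chaperone of the BAG family, had a peak of 272 at 553 bp upstream, with ranks of 1482, 963 and 1544. The only eligible gene of fat body and sugar metabolism, the lipid transfer particle gene Apoltp, had a peak of 113. Cytochrome P450 genes had 1 of 4, Cyp6v1 at 152, and the Osiris family had 1 of 7, Osi3 at 121. None had a peak among 7 cytosolic ribosomal protein genes, 4 UDP-glycosyltransferase genes, 3 neuronal genes, 2 cell death and autophagy genes, 2 Jonah protease genes and 1 gene each of muscle, glia and glutathione transferases. Antimicrobial peptide, mitochondrial ribosomal protein and histone genes had no eligible member. These lists are too small for a share to be read closely.

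At the limits of the class, the lowest signals inside it were 105.3 near lncRNA:CR45678, 105.1 near tHMG2 and 105.1 near CG12538. The highest signals just outside, in pooled regions of the same class, were 104.1 near tRNA:Lys-TTT-2-1, 104.0 near lncRNA:CR43857 and 104.0 near comm2. At the inner limit, CG3961, CG13670 and the homeobox gene Gsc had peaks inside, with signals of 278, 140 and 114, and CG15172, lncRNA:CR42657 and ft had peaks outside, with signals of 174, 311 and 310. At the outer limit, peaks near CG10357, the arginine kinase gene Argk2 and Spn43Aa lay inside, at 1983, 1963 and 1963 bp. Peaks near tRNA:Ile-TAT-1-2, lncRNA:CR43883 and lncRNA:CR44562 lay outside, at 2009, 2027 and 2027 bp. Signals on both sides of each limit overlapped or nearly met, so the limits cut through a continuous range.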

How the data were processed

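Peak lists of 3 biological replicates, a pooled list and an optimal list were used as deposited, in dm6 coordinates. Per the labels and the deposited description, each replicate list fed a procedure, the irreproducible discovery rate (IDR), that keeps regions whose ranks agree between replicates. The pooled list came from the alignments of all 3 replicates, and the optimal list came from the replicate lists and the pooled list. The peak signal is the value the authors deposited. Its formula, the peak caller and the aligner were not found in the labels or files, and read depth is unknown. The −log10 q-value was also deposited by the authors and only described. The labels give sonication to fragments of 200 to 800 bp. A control experiment that they mention was not used here.

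Genes came from Ensembl release 115 without 5896 transposable elements, which left 18358 genes. Its assembly is that of the lists, and all regions lay inside its chromosomes. Summits were classed by position in a gene body and distance to the nearest TSS, and DNA of each class was counted base by base. The 5246 highest regions of each replicate stand for its optimal peaks. Intervals are 95% Wilson, Newcombe and exact Poisson intervals and cover counting error only. Tests over replicates are exact two-sided sign-flip tests. McNemar's exact test compared motifs and words, with Benjamini-Hochberg adjustment, a threshold of 0.05 and a prior test on simulated data. McNemar tests and SEs over peaks treat peaks as independent, although all come from the same 3 replicates.

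Besides the motifs named in the results, the search held AAAAAAA (A run), TATCGATA and its overlapping core ATCGAT (DREF and BEAF-32), CACACAC (CA repeat), CACGTG (E-box), CAGGTAG (Zelda), TGANTCA (AP-1), CAAGGTCA (FTZ-F1, which overlaps the nuclear receptor core), TGTTTAC (forkhead), TTTATG (caudal type), GGTCACA (M1BP), TGACGTCA (CREB) and TTCNNNGAA (STAT). Genes were named if they had the nearest TSS of the 25 highest peaks, at least 3 peaks or a place in 1 of 21 gene lists, or if they lay at a limit of the class. The cuticle, ribosomal and other family lists were matched by symbol, and 12 list entries matched no gene. Members, lists and motifs were chosen with earlier results of these data known. Alternatives changed the distance limits, annotation, overlap, flanks, windows, signal and replicates. The flank on the other side, the comparisons between chromosome arms and all alternatives for arm 3L were added after the data were seen. Python 3.11.15, numpy 2.4.6, pandas 2.3.3, scipy 1.17.1 and matplotlib 3.10.9 were used.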

Additional observations from a re-analysis of the deposited data

How the results depend on the processing

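No paired analysis was possible because the samples form a single group. The number of peaks changed by less than 1.5 times under other distance limits and annotations, and was 156 among the optimal peaks in the 50% of highest signal. The difference in class share between the highest and other regions (-1.05 points) was -0.877 with 10000 highest regions, -0.496 with an outer limit of 1500 bp, -2.33 with 3000 bp, -0.408 with protein-coding genes and -1.62 with transposable elements. Leaving out 1 replicate gave -1.08 to -0.997. The share found in every replicate was 54.2% with 50% reciprocal overlap and 97.4% in the peaks of highest signal, and 73.5 to 77.3% without 1 replicate, which asks for 1 replicate fewer.

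The A or T difference was 6.77 points with flanks 1000 bp away and 12.3 points in the peaks of highest signal, and 9.09 to 10.2 without 1 replicate. The motif count was 0 with flanks 1000 bp away, with windows of 25 or 100 bp either side, with 1 peak per site, in the peaks of highest signal and with the flank on the other side, and 0 to 1 without 1 replicate. Words passing numbered 14 with flanks 1000 bp away. Density was 38.6 per Mb with the outer limit at 3000 bp. The upstream share was 89.1% with protein-coding genes. The share of nearest genes with a promoter peak was 15.0% with a promoter window of 250 bp and 17.1% (7.12% for genes near other regions only) when peaks of highest signal alone were counted, and 26.99 to 27.5% without 1 replicate.

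The mean difference in median rank from other optimal peaks, -50.2, became 12 without replicate 1 and ranged from -119 to 12 without 1 replicate. The ratio of density on 3L to that on the other large arms, 1.82, was 1.63 with the outer limit at 1500 bp, 1.46 with protein-coding genes and 1.54 with neighbouring peaks counted once, and the mean of the replicates was 1.64 to 1.79 without 1 replicate. The cause of these shifts was not tested. Replicates number 3, so no exact sign-flip test over replicates can go below p = 0.25.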
